A study of Mus musculus with 6 samples.

Results

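Imprinted genes are transcribed mainly from the chromosome inherited from one parent. The genes studied here were 33 mouse genes with well-known parental expression, and they were found on the array by their symbols in the platform annotation. A symbol match was found for 29 of the 33, with 71 of the 45281 probes on the array. Of these 29 genes, 11 are classed as maternally expressed and 17 as paternally expressed, and Gnas gives products of both alleles. The class can be limited to a tissue, as for Ube3a in neurons, and was not examined in these embryos. The maternally expressed RNAs H19 and Mirg and the paternally expressed Snrpn and Zrsr1, 4 genes in all, matched no symbol and were not analysed here, and 10378 probes carried no symbol.

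Whole embryos of the C3H/HeH strain were compared at E8.0 to E8.5 between the wildtype and the Zic2 iso/iso genotype. The iso allele came from a chemical mutagenesis screen and carries a stop-gain change in the fifth zinc finger of ZIC2, a transcription factor needed for forebrain division and for left-right patterning. All embryos came from intercrosses of iso/+ parents, and each genotype was represented by 3 pools of 8 stage-matched embryos on Illumina Mouse WG6 v2 arrays. Embryos of either sex were used in the study. As the embryos were whole, fewer cells of a type and less RNA per cell cannot be told apart.

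Imprinting is set in the germ line by DNA methylation at control regions rich in CG dinucleotides, and the methylated and unmethylated copies then express different neighbours. Many of the genes act on foetal growth. Paternally expressed genes such as Igf2 tend to promote growth, whereas maternally expressed genes such as Igf2r, Grb10, Cdkn1c and Phlda2 tend to restrain it. Several are known above all from the placenta, which is why Ascl2, Phlda2, Peg10 and Rtl1 were also read as a placental group. Probe intensity sums both alleles, so no value below speaks of allelic use.

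Promoter sequences of RefSeq (build GRCm38.p6, 250 bases before to 50 after each start) were at hand for 27 of the 33 genes. Across the 42 windows of these genes the median number of CG dinucleotides was 12.5, against 7 in all 32851 windows. The CG motif, which reads alike on both strands, is in capitals. Peg3 is shown because it shares its start region with Usp29 on the other strand (chr7:6730370-6730669, minus strand, 13 CG, a number reached by 37.9% of all windows). The windows of Peg3 and Usp29 overlapped by 263 bases. Mest is shown as the gene with the probe of lowest p (chr6:30737800-30738099, plus strand, 17 CG, reached by 31.4% of windows), and Phlda2 as a maternally expressed gene of the placental group (chr7:143502475-143502774, minus strand, 26 CG, reached by 16.9%). For Mest the window with the most CG was taken, and another of its windows had 8 CG, reached by 48.6%.
Peg3: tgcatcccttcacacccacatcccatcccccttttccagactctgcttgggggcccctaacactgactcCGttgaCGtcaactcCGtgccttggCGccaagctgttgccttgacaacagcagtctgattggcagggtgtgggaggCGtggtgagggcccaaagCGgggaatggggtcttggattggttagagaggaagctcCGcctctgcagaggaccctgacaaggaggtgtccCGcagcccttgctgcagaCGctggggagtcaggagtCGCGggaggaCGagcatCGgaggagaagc
Mest: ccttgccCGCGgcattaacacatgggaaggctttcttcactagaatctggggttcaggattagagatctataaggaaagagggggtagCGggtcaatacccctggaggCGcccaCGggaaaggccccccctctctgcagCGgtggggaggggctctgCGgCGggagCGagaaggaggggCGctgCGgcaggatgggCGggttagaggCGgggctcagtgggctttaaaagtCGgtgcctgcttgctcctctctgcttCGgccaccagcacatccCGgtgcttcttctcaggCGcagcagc
Phlda2: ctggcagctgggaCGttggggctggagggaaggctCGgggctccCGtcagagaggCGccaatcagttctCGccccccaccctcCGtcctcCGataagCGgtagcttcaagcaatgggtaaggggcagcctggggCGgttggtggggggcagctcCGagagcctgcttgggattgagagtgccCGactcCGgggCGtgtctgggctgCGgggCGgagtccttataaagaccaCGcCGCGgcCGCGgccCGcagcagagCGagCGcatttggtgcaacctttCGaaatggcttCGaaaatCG

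Several of the loci also carry microRNAs, which the array did not measure. By the RefSeq positions, Mest and Igf2 each hold 1 hairpin, Rian holds 3, Mirg holds 10 and the Rtl1 locus holds 15. One mature microRNA of each of 4 measured loci is given below with its seed (bases 2 to 8) in capitals, miR-335-5p from Mest, miR-483-3p from Igf2, miR-370-3p from Rian, and miR-127-3p, which is antisense to Rtl1. No seed is shared among the 4.
mmu-miR-335-5p: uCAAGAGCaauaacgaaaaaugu
mmu-miR-483-3p: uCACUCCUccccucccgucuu
mmu-miR-370-3p: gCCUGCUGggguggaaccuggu
mmu-miR-127-3p: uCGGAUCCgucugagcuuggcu

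All values below are log2 intensities after quantile normalisation, and a difference is Zic2 iso/iso minus wildtype. Pools were alike over all probes, with pairwise correlations of 0.993 to 0.995. The median raw intensity ran from 154 to 187 and the lowest raw intensity from 104 to 122, so the deposited values still contained optical background. A background level of 7.47 was taken from 1605 probes for genes not expected in embryos, such as olfactory receptors and keratin-associated proteins. The brighter of the 2 Zic2 probes read 7.64, 7.57 and 8.01 in the mutant pools and 8.27, 8.06 and 8.00 in the wildtype pools (difference -0.37, adjusted p = 0.61). Zic2 checks no label here, since a stop-gain transcript can persist. Mutant pool 3 was low for embryonic globin and heart markers, among them Hbb-bh1 at 9.04, where the other pools read 10.75 to 12.87.

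At this stage 22 of the 29 had a mean over that level in 1 genotype or both, namely 10 of 11 maternally expressed genes, 11 of 17 paternally expressed genes and Gnas. Among all named genes the share was 56.9%. The 7 at background were Peg12, Plagl1, Magel2, Sgce, Nap1l5, Usp29 and Asb4, whose pool values lay between 6.98 and 7.52. For these 7 no single difference is given, though counts and medians over all 29 genes include them. Igf2, the main foetal growth factor of the mouse, had a mean of 14.82 in wildtype embryos.

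No imprinted gene passed the threshold in Zic2 iso/iso embryos. With limma and Benjamini-Hochberg adjustment over all probes, 0 of 29 had an adjusted p under 0.05, and the lowest was 0.44 for Peg10. Over all 45281 probes 20 passed, which is 0.0442%. At an unadjusted p under 0.05 there were 8 of 29 genes, 5 higher and 3 lower, against a background of 7.65% of named genes. All 8 were above the background level, where the share of named genes was 11.2%. The 95% confidence interval of the difference lay within 0.5 of 0 on the log2 scale (1.41-fold) for 27 of the 29, the exceptions being Peg10 and Igf2r. Of the 22 genes above background it did so for 20. These p-values measure the spread between the pools, and an exact permutation test over 3 against 3 pools cannot give a p below 0.1.

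The pools of both genotypes did not overlap for 8 of 29 genes. Igf2r, Peg10 and Phlda2 were higher in all mutant pools, and Mest, Cdkn1c, Ndn, Impact and Rtl1 were lower in all of them. The background for non-overlap was 10.9% of named genes by their brightest probe, with 4.67% higher and 6.24% lower. Among named genes above the background level, where all 8 lay, it was 12.4%. The count rested on the scaling. With log2 values alone it was 3 (Igf2r, Peg3 and Peg10), against 4.71% of all probes, and with median centring it was 4 (the same genes and Rtl1), against 9.74% of all probes. Igf2r and Peg10 were the genes apart in every setting tried.

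**Figure D1:**
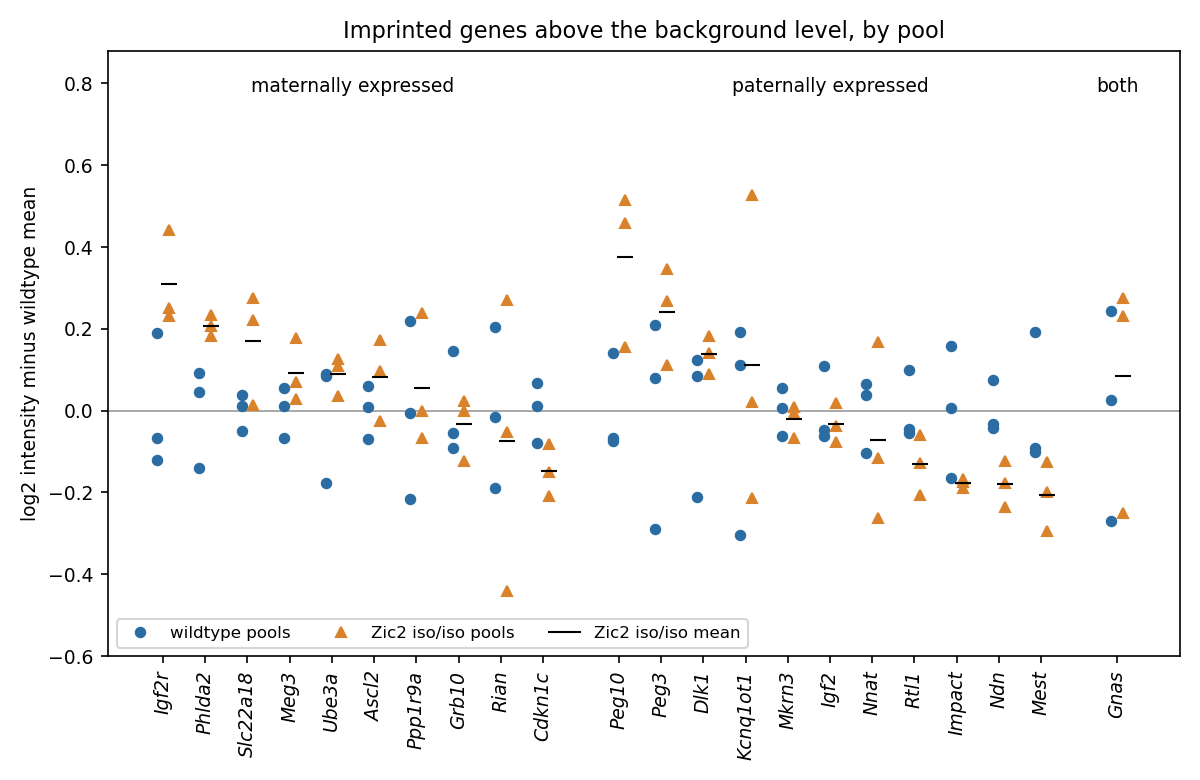
Each point is 1 pool, plotted as its log2 intensity minus the wildtype mean of that gene (vertical axis), for the 22 imprinted genes above the background level grouped by the expressed allele, with a bar at the Zic2 iso/iso mean. Mutant means run from -0.21 for Mest to 0.38 for Peg10, and the pools of most genes overlap.

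The maternally and paternally expressed genes were then taken apart. The median difference was 0.08 over the 11 maternally expressed genes, of which 7 were positive and 4 negative. It was -0.03 over the 17 paternally expressed genes, of which 7 were positive and 10 negative. Over all probes the median was 0.00026. The paternal median turned positive with log2 values alone (0.063) and with median centring (0.014), so its sign was not stable, and the maternal median ran from 0.060 to 0.144 over all settings. Over genes above background alone the median was 0.09 for the 10 maternally expressed genes (7 positive, 3 negative). It was -0.03 for the 11 paternally expressed genes (4 positive, 7 negative). The difference between both classes was not tested.

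Of the genes of the IGF axis, Igf2r was higher in every mutant pool without passing the threshold. Igf2r, the receptor that takes up IGF2 for degradation, read 11.23, 11.21 and 11.42 in the mutant pools and 11.16, 10.91 and 10.85 in the wildtype pools. All mutant values were above all wildtype values, wildtype pool 1 by the least. The difference was 0.31 ± 0.09 (SE, 1.24-fold, limma adjusted p = 0.60, exact permutation p = 0.1). Its second probe overlapped between genotypes and gave 0.20. Without wildtype pool 1 the adjusted p of the brightest probe fell to 0.16, the lowest of any imprinted gene by its brightest probe in the settings tried.

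Igf2 itself read 14.75, 14.84 and 14.79 in the mutant pools and 14.93, 14.76 and 14.78 in the wildtype pools. These overlapped, and the difference of -0.03 had a 95% interval from -0.18 to 0.12. Grb10, an adaptor that restrains signalling by the insulin and IGF receptors, had 3 probes with different readings. The brightest read 13.66, 13.69 and 13.54 in mutant and 13.81, 13.57 and 13.61 in wildtype pools (difference -0.03), while the second read 9.13, 9.16 and 8.88 against 9.03, 8.68 and 8.45 (difference 0.34, limma adjusted p = 0.74). The genotypes overlapped for both probes.

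The non-imprinted partners of this axis had small differences, with 14 of 15 confidence intervals within 0.5 of 0. The 15 measured genes were the ligand Igf1, receptors, binding proteins, substrates and RNA-binding regulators. Of these, 14 were above background and 0 passed the threshold by limma. At an unadjusted limma p under 0.05 there were 3, against 7.65% of named genes and 11.2% of those above background. The median difference of the 15 was -0.00025. The member with the largest difference was Igf2bp1, an RNA-binding protein that binds Igf2 mRNA, at 12.11, 12.32 and 12.23 in mutant and 12.05, 12.03 and 11.85 in wildtype pools (difference 0.24, limma adjusted p = 0.68, exact permutation p = 0.1). All its mutant values were above all its wildtype values. Pools did not overlap for 3 of the 15 genes, 1 higher and 2 lower, against 10.9% of named genes and 12.4% of those above background. The lower ones were Igf1 (difference -0.17, limma adjusted p = 0.78) and Igfbp4 (difference -0.18, limma adjusted p = 0.75). Igf1r, the receptor that carries the growth signal of IGF2, was close to Igf2bp1 in size (difference 0.24, adjusted p = 0.92) but overlapped, with wildtype pool 3 low at 9.76.

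In the Kcnq1ot1 domain the maternally expressed growth restrainers went both ways. Phlda2, a small pleckstrin homology protein that limits placental growth, read 13.90, 13.92 and 13.87 in the mutant pools and 13.55, 13.78 and 13.74 in the wildtype pools. The mutant values were close together and all above the wildtype ones. The difference was 0.21 ± 0.07 (SE, 1.15-fold, limma adjusted p = 0.73, exact permutation p = 0.1). Cdkn1c, the cyclin-dependent kinase inhibitor of the same domain, read 13.59, 13.65 and 13.72 against 13.81, 13.72 and 13.87, a difference of -0.15 (adjusted p = 0.84) with mutant pool 3 and wildtype pool 2 almost level.

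The rest of that domain was closer to wildtype or uneven among pools. Ascl2, a transcription factor of the spongiotrophoblast, read 7.40, 7.59 and 7.52 in mutant and 7.35, 7.43 and 7.48 in wildtype pools. It thus straddled the background level, with a mutant mean of 7.50 and a wildtype mean of 7.42. Its difference was 0.08 ± 0.07 (SE, 1.06-fold, limma adjusted p = 0.95, exact permutation p = 0.3), and as the wildtype mean was at background this understates any true fold. Slc22a18, a membrane transporter, read 8.30, 8.25 and 8.04 against 7.98, 8.04 and 8.06, and its difference of 0.17 came from mutant pools 1 and 2. Kcnq1ot1, the long RNA that silences the domain on the paternal chromosome, scattered most, with 8.87, 8.13 and 8.37 against 8.54, 8.46 and 8.04 and an interval from -0.24 to 0.47.

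**Figure D2:**
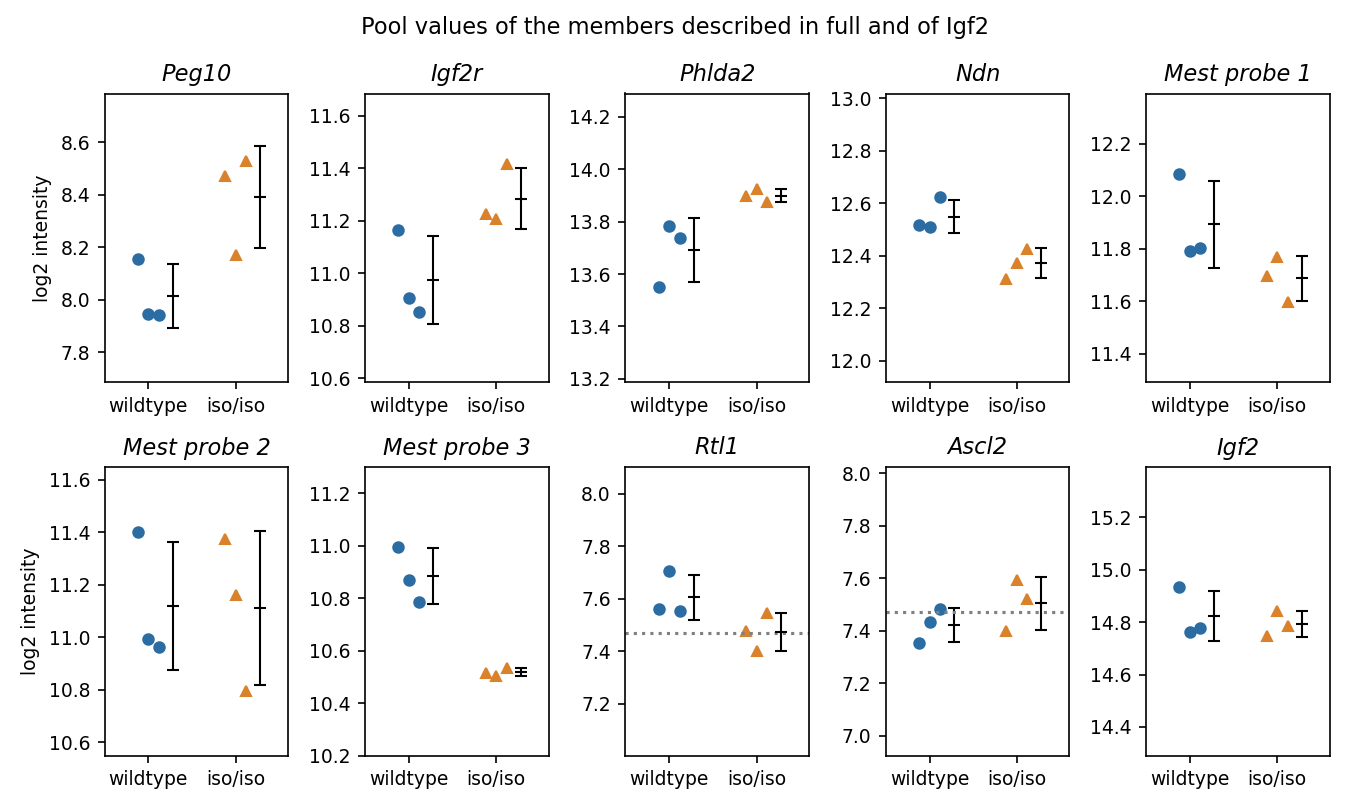
Log2 intensity (vertical axis, each panel spanning the same range) of each pool by genotype for the genes given with full statistics and for Igf2, with the mean and SD of the 3 pools beside the points. Blue circles are wildtype and orange triangles Zic2 iso/iso pools, and the dotted line is the background level of 7.47, to which Rtl1 and Ascl2 lie close.

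Of the retrotransposon-derived genes, Peg10 and Rtl1 differed in opposite directions. Peg10, which is essential for placental development, read 8.47, 8.17 and 8.53 in the mutant pools and 8.16, 7.95 and 7.94 in the wildtype pools. Mutant pool 2 was barely above wildtype pool 1. The difference was 0.38 ± 0.10 (SE, 1.30-fold, limma adjusted p = 0.44, exact permutation p = 0.1), the largest of the 29 genes by size. Over the other settings tried the difference of this probe ran from 0.26 to 0.51, and it was 0.50 with normexp background correction. The second Peg10 probe gave 0.15 near background. Without mutant pool 2 the adjusted p was 0.17.

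Rtl1, which maintains the capillaries of the foetal placenta, read 7.48, 7.40 and 7.55 in mutant and 7.56, 7.70 and 7.55 in wildtype pools. Mutant pool 3 and wildtype pool 3 were nearly equal, and all values were close to background. The difference was -0.13 ± 0.07 (SE, 1.10-fold, limma adjusted p = 0.89, exact permutation p = 0.1). Near Peg10, Ppp1r9a, the actin-binding neurabin, read 9.95, 9.64 and 9.71 against 9.93, 9.70 and 9.49 (difference 0.06), and Sgce and Asb4 were at background.

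Mest, a paternally expressed hydrolase-like protein of the mesoderm, had 3 probes above background that gave differences of unequal size. Its brightest probe read 11.69, 11.77 and 11.60 in mutant and 12.08, 11.79 and 11.80 in wildtype pools, so that mutant pool 2 and wildtype pool 2 almost touched. The difference was -0.21 ± 0.09 (SE, 1.15-fold, limma adjusted p = 0.80, exact permutation p = 0.1). A further probe, singled out after its values were seen, read 10.51, 10.50 and 10.53 against 10.996, 10.87 and 10.79. There the genotypes were clearly apart and the difference was -0.37 ± 0.07 (SE, 1.29-fold, limma adjusted p = 0.16, exact permutation p = 0.1), the lowest adjusted p among the 71 probes.

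The remaining Mest probe did not share this difference. It read 11.38, 11.16 and 10.80 in mutant and 11.40, 10.99 and 10.96 in wildtype pools (difference -0.01, interval from -0.31 to 0.29). The probe with the lowest p kept a negative difference in all 15 alternative fits, from -0.42 to -0.29, and passed the threshold in 0 of them. Mest has 3 annotated start windows, and which transcripts each probe reads was not examined.

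**Figure D3:**
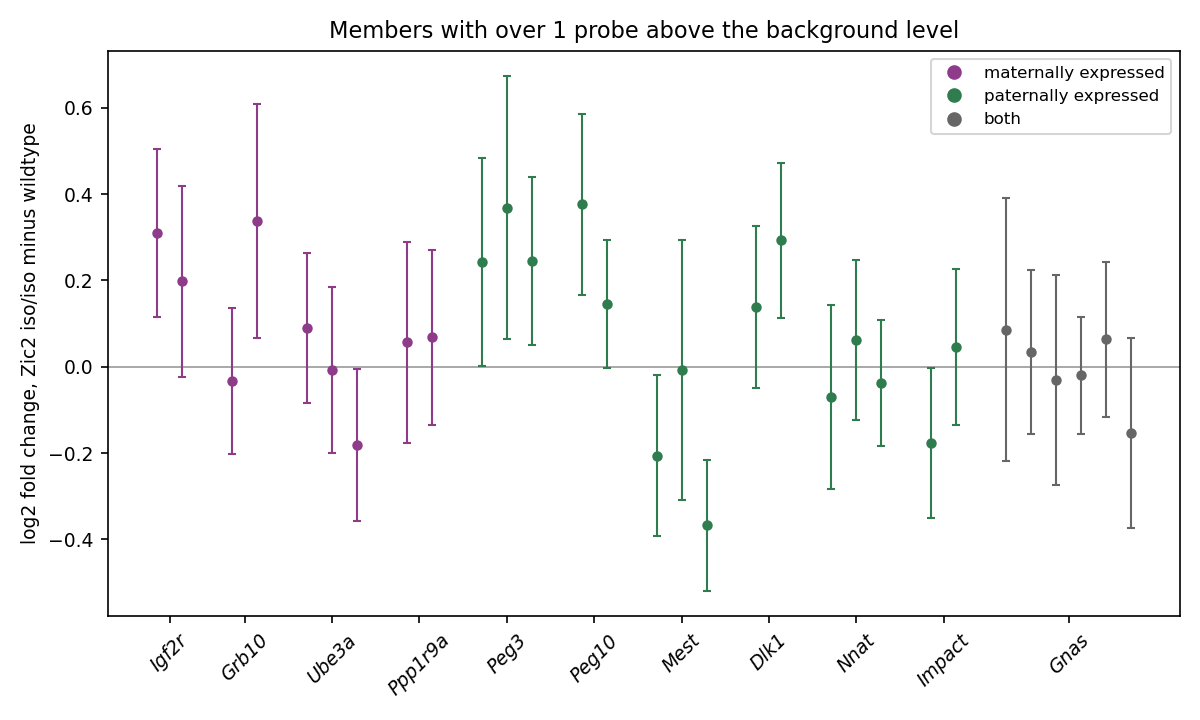
Difference of Zic2 iso/iso minus wildtype (vertical axis, log2) with its 95% limma interval for every probe above background of the 11 imprinted genes that had more than 1 such probe, in order of brightness and coloured by the expressed allele. The probes had 1 sign for 6 genes and both signs for 5, and the 3 Mest probes run from -0.37 to -0.01.

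In the Dlk1 to Mirg cluster the paternally and maternally expressed transcripts showed no common direction. Dlk1, a transmembrane protein of the Delta and Notch type, read 13.31, 13.26 and 13.35 in mutant and 12.96, 13.30 and 13.26 in wildtype pools, with wildtype pool 1 low (difference 0.14). Its second probe read 11.75, 11.53 and 11.47 against 11.19, 11.38 and 11.31 without overlap (difference 0.29, adjusted p = 0.57), and it too was singled out after its values were seen. The maternally expressed long RNA Meg3 was just above background at 7.60, 7.56 and 7.71 against 7.58, 7.54 and 7.46 (difference 0.09). Rian, the next RNA of the cluster, read 9.01, 8.69 and 8.30 against 8.56, 8.95 and 8.73. The mutant pools of Rian spanned the whole wildtype range, and the interval ran from -0.39 to 0.24.

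In the Prader-Willi and Angelman domain, Ndn, which encodes the MAGE-family protein necdin, read 12.31, 12.37 and 12.43 in mutant and 12.52, 12.51 and 12.62 in wildtype pools. Both genotypes had tight pools, the mutant ones lower. The difference was -0.18 ± 0.07 (SE, 1.13-fold, limma adjusted p = 0.75, exact permutation p = 0.1). Mkrn3, a zinc finger ubiquitin ligase, read 9.16, 9.17 and 9.10 against 9.10, 9.22 and 9.17 (difference -0.02, interval from -0.16 to 0.12). Magel2 and Peg12 were at background.

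Ube3a, the ubiquitin ligase that is imprinted in neurons, read 8.43, 8.501 and 8.52 in mutant and 8.48, 8.48 and 8.22 in wildtype pools by its brightest probe (difference 0.09). A dimmer probe read 7.54, 7.37 and 7.60 against 7.71, 7.56 and 7.78 (difference -0.18, limma adjusted p = 0.82), so the sign for Ube3a depended on the probe. Snurf, the partner of Snrpn on one transcript, was looked up after Snrpn was found to match no symbol. Its brightest probe read 12.59, 12.93 and 12.89 in mutant and 12.74, 13.07 and 13.02 in wildtype pools, a difference of -0.14 with overlap.

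Peg3, a zinc finger protein, was higher in the mutant mean by all 3 of its probes above background, by 0.24, 0.37 and 0.24. The brightest read 12.80, 12.95 and 13.03 in mutant and 12.90, 12.77 and 12.40 in wildtype pools, where wildtype pool 3 was lowest and wildtype pool 1 lay above mutant pool 1 (adjusted p = 0.83). Without wildtype pool 3 its difference was 0.10. Usp29, which starts within the same sequence on the other strand (printed above), was at background by all 3 of its probes. Over the 22 genes above background, wildtype pool 3 was the lowest of the 6 pools for 8, against 18% of all named genes above background.

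The single loci gave small differences. Impact, a regulator of translation under stress, read 11.37, 11.35 and 11.36 in mutant and 11.54, 11.37 and 11.69 in wildtype pools (difference -0.18, adjusted p = 0.83), wildtype pool 2 being level with the mutants, and its dimmer probe gave 0.05. Nnat, a small membrane proteolipid, read 9.37, 9.80 and 9.52 against 9.70, 9.54 and 9.68 (difference -0.07). Gnas, the complex locus of the stimulatory G protein alpha subunit, read 10.11, 10.15 and 9.63 against 9.90, 10.12 and 9.61 by its brightest probe, the third pool of either genotype being low. The differences of its 6 probes above background ran from -0.15 to 0.09, and the probes were not assigned to its maternally and paternally expressed transcripts. The median SD over pools was 0.114 for the 22 genes above background and 0.106 for all named genes above background.

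The placental group was then set beside markers of the tissues around the embryo. The mean of Ascl2, Phlda2, Peg10 and Rtl1 was 9.31, 9.27 and 9.37 in the mutant pools and 9.16, 9.22 and 9.18 in the wildtype pools. The genotypes did not overlap and differed by 0.13, with Phlda2 and Peg10 higher, Ascl2 hardly different and Rtl1 lower. With log2 values alone the difference was 0.21 and the pools overlapped. The mean of the 10 maternally expressed genes above background, which include Phlda2 and Ascl2, did not overlap either (difference 0.08). Its pools overlapped with log2 values alone and with median centring.

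Several defining trophoblast markers were at background, and the trophoblast list overlapped between the genotypes. Of 23 measured trophoblast genes, 11 were at background, among them Tpbpa and Tpbpb of the spongiotrophoblast, Elf5, Esx1 and Eomes of the trophoblast lineage, Ctsq, and the syncytins Syna and Synb, while Prl2c2, one of a family of near-identical prolactin-like genes, read 10.86 to 11.47 and Plac1 9.54 to 10.02. The mean of the 12 above background was 9.68 to 9.75 in mutant and 9.66 to 9.74 in wildtype pools. The largest difference was that of Cdx2 (0.32, adjusted p = 0.50), a gene also expressed in the posterior embryo.

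Yolk sac and visceral endoderm genes were plainly present, with 23 of 24 above background. Their mean was 10.74, 10.25 and 10.42 in mutant and 10.11, 10.44 and 10.48 in wildtype pools, so mutant pool 1 was highest and wildtype pool 1 lowest. The median difference of the 24 was 0.14, and 19 were positive. Apob, an apolipoprotein of the visceral endoderm, had the largest at 0.50, with 11.32, 10.91 and 11.26 against 10.64, 10.66 and 10.69 (adjusted p = 0.15). Over the 22 imprinted genes above background, wildtype pool 1 was the lowest of the 6 pools for 4 and the highest for 3. Among all named genes above background the shares were 14.6% and 14.5%. Mutant pool 1 was the lowest for 4 and the highest for 4, against 23% and 17.5%. The part of yolk sac content in the values of the imprinted genes was not tested.

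The remaining marker lists overlapped between the genotypes but were uneven among pools. Of 10 decidual genes 5 were above background, and their mean was 8.46 to 8.65 in mutant and 8.51 to 8.86 in wildtype pools. Pool 1 was the lowest of either genotype. Prl8a2 differed most (-0.46, adjusted p = 0.91). The 8 primitive blood genes above background averaged 9.40, 8.89 and 8.43 against 8.97, 9.37 and 9.27, with mutant pool 3 lowest and Hbb-bh1 at -0.93 (adjusted p = 0.93). All 9 measured blood genes had a negative difference. The 13 genes of the embryo proper averaged 9.87, 10.03 and 9.73 against 10.11, 10.04 and 10.02, so that mutant pools 1 and 3 lay below every wildtype pool and mutant pool 2 among them. The list means differed by -0.14 for decidua, -0.30 for primitive blood and -0.18 for the embryo proper, beside 0.13 for yolk sac and visceral endoderm. Actc1, a heart muscle actin, differed by -0.66 (adjusted p = 0.75), with mutant pool 3 lowest. Tcf15, a transcription factor of the paraxial mesoderm, and the myosin light chain gene Myl4 were lower in all mutant pools, and both are named after their values were seen. Tcf15 read 9.43, 9.89 and 9.80 against 10.40, 10.24 and 10.05 (difference -0.52, limma adjusted p = 0.27, exact permutation p = 0.1), and Myl4 differed by -0.61 (adjusted p = 0.61). Of the 19 measured genes of the embryo proper, 8 were positive and 11 negative. At an unadjusted limma p under 0.05 there were 5 lower and 2 higher. The higher ones were Hoxb1 (difference 0.22, limma adjusted p = 0.79) and Hoxb2 (difference 0.23, limma adjusted p = 0.74), both with overlapping pools. The part of these tissues in the values of the imprinted genes was not tested. No gene of the 5 tissue lists passed the threshold by limma. At an unadjusted limma p under 0.05 there were 13 of the 85 measured. The share was 7.65% among all named genes and 11.2% among those above background.

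**Figure D4:**
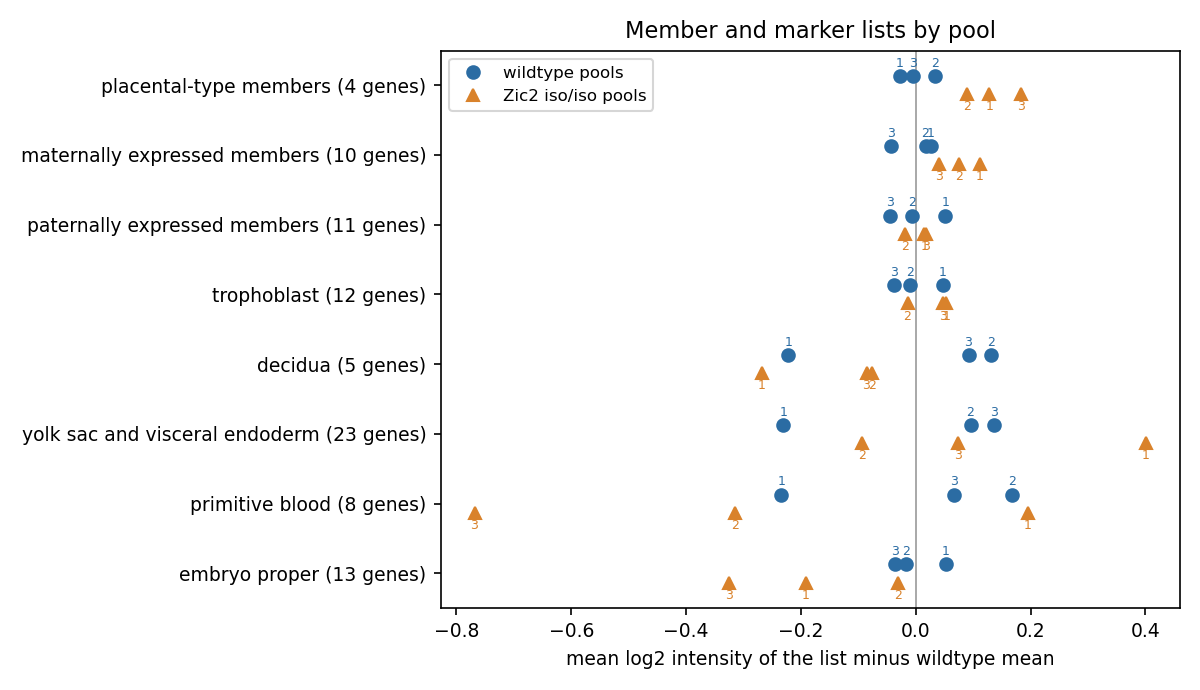
Mean log2 intensity of each list in each pool minus the wildtype mean of that list (horizontal axis), over the members above the background level, with the pool number at each point. The placental group is apart by 0.13 and the maternally expressed genes by 0.08, while the trophoblast pools overlap. Mutant pool 1 is highest for yolk sac genes and mutant pool 3 is lowest for primitive blood.

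A wider set of imprinted genes also held none past the threshold. Of 22 further maternally expressed genes 12 were above background, and of 15 further paternally expressed genes 11 were. By limma 0 of these 37 passed the threshold, with 3 at an unadjusted p under 0.05, against 7.65% of named genes. The median differences were 0.02 and -0.02. Pools did not overlap for 2 of the 22 and for 1 of the 15, against the 10.9% background above. The largest differences above background were those of Osbpl5, an oxysterol-binding protein (7.52, 7.53 and 7.48 against 7.70, 7.78 and 7.73, difference -0.23, adjusted p = 0.53), and of Smoc1, a secreted matricellular protein (11.26, 11.12 and 11.38 against 11.59, 11.40 and 11.47, difference -0.23, adjusted p = 0.74).

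Genes that keep imprints through embryonic cell divisions had small differences. Of 10 measured, 8 were above background, 0 passed the threshold by limma and 0 had an unadjusted p under 0.05. They included the maintenance methyltransferase Dnmt1 (difference 0.02), its partner Uhrf1 (0.01) and the corepressor Trim28 (-0.06). The largest difference among the 8 was that of Smchd1, a chromosomal silencing protein, at 9.62, 9.67 and 9.84 in mutant and 9.86, 9.69 and 9.40 in wildtype pools (0.06, adjusted p = 0.98). All 10 confidence intervals, those of the 8 genes above background among them, lay within 0.5 of 0.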

How the data were processed

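Pools of whole embryos were hybridised by the authors to Illumina Mouse WG6 v2 arrays. The deposited values were probe intensities on a linear scale with no detection p. The study's methods name VSN normalisation, but the deposited intensities had pool medians that differed, so log2 (floor 1) and quantile normalisation were applied here. All 45281 probes were fitted with limma 3.58.1 in R 4.3.3 (lmFit and eBayes, no covariate, Benjamini-Hochberg over all probes, threshold 0.05). Precision is limited by the 3 arrays per genotype.

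Of the probes, 34885 had 1 gene symbol in the platform annotation, 18 several and 10378 none. The brightest probe over the 6 pools stood for a gene, and another probe above background was added where it had the opposite sign and an unadjusted p under 0.05. Full statistics were given for the 5 genes of lowest unadjusted p and for the placental group. In each other list the gene above background with the largest difference was named. Background was set at the 95th percentile over 1605 probes for receptors of smell, keratin-associated proteins and beta-defensins. The members and lists were chosen with earlier results of these data known. Groups came from the sample labels, and same-numbered pools correlated at -0.124 to -0.021 in their deviations, so the numbers were not taken as pairs. The fit was tested on simulated data with changes planted in bright probes. At a limma adjusted p under 0.05, changes of 0.5 on the log2 scale were recovered for 38.5% of 65 probes. Changes of 1 were recovered for 91.4% of 70 and changes of 2 for 100% of 65. Smaller changes were not simulated.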

Additional observations from a re-analysis of the deposited data

How the results depend on the processing

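The count of 0 imprinted genes past the threshold, and that of 0 among the other imprinted genes, held in all 18 alternatives, while 4 to 34 probes passed in the whole table. The lowest adjusted p of an imprinted gene by its brightest probe was 0.159, and that of the further Mest probe was 0.131 with array weights. With the replicate block the count was 0 as well, and the block, which rests on numbers that do not pair the pools, changed no call among the imprinted genes, while 17 probes passed in the whole table, against 20 without it. The count of genes whose pools did not overlap (8) was 3 with no normalization between arrays, 4 with median centring and 10 to 13 when 1 pool was left out, and then 19.7% to 22.2% of all probes did not overlap. It was 13 without mutant pool 1. The maternal median (0.0816) was 0.144 with no normalization, 0.116 with normexp, 0.133 with the rewritten variance stabilisation, 0.0624 with probes averaged by gene, and 0.0595 to 0.122 when 1 pool was left out. The paternal median (-0.0313) was 0.0631 with no normalization, 0.0143 with median centring, -0.0114 with the variance stabilisation, and -0.0459 to -0.0255 when 1 pool was left out. The trophoblast list (0.0288) differed by 0.112 with no normalization. That setting shifts the median of all probes to 0.0516. The causes were not tested.

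Of 352 values of single genes 25 changed sign, none of them past the threshold, in 10 genes whose main differences were at most 0.111. With no normalization Igf2 was 0.0907, Rian 0.0240, Grb10 0.050, Mkrn3 0.0756 and Nnat 0.0173. With median centring Igf2 was 0.0419, Grb10 0.0012 and Mkrn3 0.0268. With probes averaged by gene Meg3 was -0.0046, Grb10 0.0881 and Ube3a -0.0057. Leaving out 1 pool gave ranges that crossed 0 for Kcnq1ot1 (-0.0944 to 0.273), Nnat (-0.19 to 0.0242), Ppp1r9a (-0.051 to 0.167), Gnas (-0.0493 to 0.254), Rian (-0.244 to 0.109), Grb10 (-0.0811 to 0.0428), Mkrn3 (-0.0516 to 0.0070) and Igf2 (-0.0622 to 0.0224).

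Signal over background limits the dim genes. Meg3, Rtl1 and Ascl2 lay within 0.2 of the background level, where intensities still include optical background, and with the 99th percentile as background 21 genes stayed above it.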
